A study of Mus musculus with 6 samples.

Results

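The 10 genes described here are members of the *Cyp2b* and *Cyp3a* subfamilies of cytochrome P450, the classical targets of the nuclear receptors CAR and PXR in liver. They were chosen by name, as the rows of the deposited expression tables named *Cyp2b9*, *Cyp2b10*, *Cyp2b13*, *Cyp3a11*, *Cyp3a13*, *Cyp3a16*, *Cyp3a25*, *Cyp3a41a*, *Cyp3a44* or *Cyp3a59*. They make up 10 of the 21528 genes listed in any library, 3 of them *Cyp2b* and 7 *Cyp3a*. One further gene of these subfamilies, *Cyp3a41b*, had a row, while *Cyp2b19*, *Cyp2b23* and *Cyp3a57* had none in the tables used here.

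CAR (encoded by *Nr1i3*) and PXR (encoded by *Nr1i2*) bind drugs, bile acids and steroids, or respond to them indirectly, and pair with the retinoid X receptor RXR on DNA to switch on genes of drug and steroid clearance. *Cyp2b10* is the standard readout of active CAR in mouse liver, and *Cyp3a11* that of PXR, although each receptor can act on the targets of the other. The enzymes sit in the endoplasmic reticulum of hepatocytes, hold a haem group and take electrons from P450 reductase. Several members, among them *Cyp2b9*, *Cyp2b13*, *Cyp3a16*, *Cyp3a41a* and *Cyp3a44*, are known for higher expression in female than in male mouse liver.

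RNA was sequenced from the liver of 3 wild-type (WT) and 3 homozygous TRIM24C52/55A knockin mice, with 1 library per mouse. All mice were labelled C57BL/6 (the knockin was made on a C57Bl/6J background), were 5 months old and had eaten a high-fat diet (HFD, 60% fat) for 3 months, so the comparison holds on that diet and no library represents a chow diet. The knockin changes cysteines 52 and 55 of TRIM24, a nuclear co-regulator with a ubiquitin ligase domain, to alanine in every cell and leaves the protein expressed. The question asked of the data was how the 10 genes differed between the knockin and WT livers.

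The promoters of the members whose values are compared in most detail are shown first, from RefSeq on GRCm38.p6, as the 250 bases before the start that RefSeq annotates and read 5′ to 3′ in the direction of the gene. All 10 members had a promoter in that table. *Cyp3a25* and *Cyp3a59* lie head to head on chromosome 5 with their starts 69.6 kb apart, and their promoters were 95.6% identical over 249 aligned bases. Capitals in the first 3 sequences mark each match to AGGTCA, the half-site that nuclear receptors of this class bind, on either strand (TGACCT is its reverse complement). The windows shown are chr5:146009619-146009868 on the minus strand for *Cyp3a25*, chr5:146079008-146079257 on the plus strand for *Cyp3a59* and chr5:145879855-145880104 on the minus strand for *Cyp3a11*, the most abundant member. GENCODE M21 places the start of *Cyp3a11* further upstream, so that 110 bases of its window lie inside the GENCODE gene.
Cyp3a25: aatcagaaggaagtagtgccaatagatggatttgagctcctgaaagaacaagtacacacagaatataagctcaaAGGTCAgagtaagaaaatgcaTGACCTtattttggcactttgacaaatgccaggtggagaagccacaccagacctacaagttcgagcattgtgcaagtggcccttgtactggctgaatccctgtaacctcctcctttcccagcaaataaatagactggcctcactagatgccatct
Cyp3a59: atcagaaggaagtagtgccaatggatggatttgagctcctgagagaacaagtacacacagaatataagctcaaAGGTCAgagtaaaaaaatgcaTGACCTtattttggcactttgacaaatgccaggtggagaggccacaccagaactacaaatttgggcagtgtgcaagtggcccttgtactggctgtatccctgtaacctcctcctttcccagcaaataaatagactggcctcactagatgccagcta
Cyp3a11: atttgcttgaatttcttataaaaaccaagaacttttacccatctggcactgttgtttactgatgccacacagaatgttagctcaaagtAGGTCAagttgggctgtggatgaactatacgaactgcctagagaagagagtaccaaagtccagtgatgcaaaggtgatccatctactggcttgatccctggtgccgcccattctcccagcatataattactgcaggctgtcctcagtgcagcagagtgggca

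AGGTCA was present in 14.0% of 32851 promoter windows of this length. *Cyp3a25* held 2 matches on opposite strands, beginning at positions -176 and -155 relative to the start, and *Cyp3a59* held 2 in the same arrangement, at -177 and -156. *Cyp3a11* and *Cyp3a44* held 1 match each, *Cyp2b9* and *Cyp2b13* held 1 each at position -138, and *Cyp2b10*, *Cyp3a13*, *Cyp3a16* and *Cyp3a41a* held none in this window. The longer motif CAAAGTCCA, a form of the HNF4A site, was present in 0.384% of all windows and in those of *Cyp3a11*, *Cyp3a16* and *Cyp3a41a*. AGTTCA, a variant half-site, was present in 11.8% of windows and in those of *Cyp3a11* and *Cyp3a41a*. TTCNNNGAA, the STAT5 motif, was present in 7.02% of windows and in none of the members. A match of letters is a description of the window and does not show that a factor binds there.

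*Cyp2b9* (chr7:26173159-26173408, plus strand) and *Cyp2b13* (chr7:26061245-26061494, plus strand) start 112 kb apart in the same direction and have nearly the same promoter, with 2 mismatches in 250 bases. The promoter of *Cyp2b10* was 75.8% identical to each of them over 240 aligned bases. The pair is shown because the balance between these genes was compared between the genotypes, and capitals mark the bases that differ, with the AGGTCA match left in lower case.
Cyp2b9: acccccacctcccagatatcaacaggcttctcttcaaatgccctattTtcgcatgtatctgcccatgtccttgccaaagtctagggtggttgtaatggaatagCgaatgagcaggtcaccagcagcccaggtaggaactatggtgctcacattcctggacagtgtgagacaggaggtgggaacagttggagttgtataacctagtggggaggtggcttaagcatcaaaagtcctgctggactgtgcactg
Cyp2b13: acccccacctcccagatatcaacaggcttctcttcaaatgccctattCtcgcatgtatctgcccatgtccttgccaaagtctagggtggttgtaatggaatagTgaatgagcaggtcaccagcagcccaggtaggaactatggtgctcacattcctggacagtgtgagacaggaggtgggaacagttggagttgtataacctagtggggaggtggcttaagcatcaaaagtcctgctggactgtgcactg

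Levels are given in FPKM, which correct a gene's fragments for transcript length and for library size, as deposited by the authors. The steps between the lowest values put 1 fragment per kilobase at 0.0605 to 0.0644 FPKM and the depth of the libraries at 0.954 to 1.02 times that of WT replicate 1. *Trim24* had 4.85 to 5.96 FPKM in WT and 4.31 to 8.46 FPKM in TRIM24C52/55A libraries, which does not check the labels because the mutant gene is still transcribed. All 4 Y-linked genes examined were above 0.5 FPKM in all 6 libraries. *Ttr*, a defining gene of hepatocytes, had 4482 to 5844 FPKM, whereas *Adipoq*, *Plin1* and *Lep*, which fat cells make, had 4.55, 3.32 and 3.98 FPKM in TRIM24C52/55A replicate 2 against at most 0.127 FPKM in the other 5 libraries. In bulk liver RNA, fewer cells of a type and less RNA per cell cannot be told apart.

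Of the 10 members, 8 reached a mean of 0.5 FPKM over the 6 libraries and were tested, and 2 of them, *Cyp3a25* and *Cyp3a59*, were lower in the TRIM24C52/55A liver with an adjusted p-value under 0.05 (limma on log2(FPKM + 1), Benjamini-Hochberg adjustment over 12225 genes). No member was called higher. Across all genes tested, 7.72% passed in either direction, 6.09% as lower and 1.64% as higher. *Cyp2b10* and *Cyp2b13* reached the filter only through the genotype with the higher mean, so no summary over the 8 is read. The median log2 fold change of all genes was -0.08. Every TRIM24C52/55A library lay below every WT library for 2 of the 8, against 22.5% of all genes tested. Fold changes on this scale understate the change of genes near or below 1 FPKM.

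**Figure D1:**
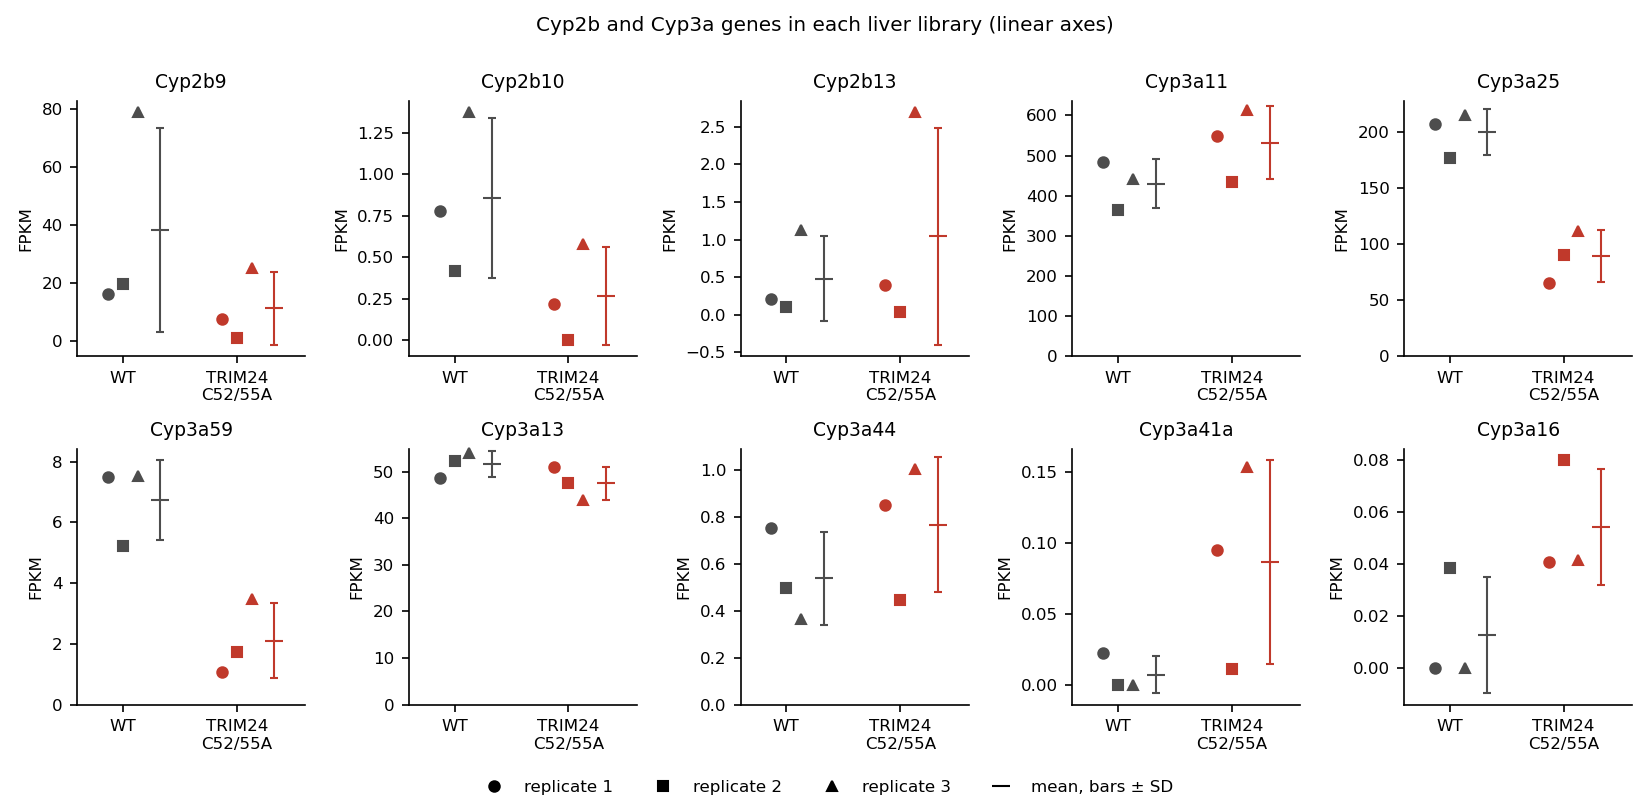
FPKM of the 10 members (linear vertical axes that differ between panels) in each WT (grey) and TRIM24C52/55A (red) library, with circles, squares and triangles for replicates 1, 2 and 3 and the mean ± SD beside them (n = 3). The groups separate for Cyp3a25 and Cyp3a59, and the triangles stand highest in both genotypes for the 3 Cyp2b genes.

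*Cyp3a25*, a steroid- and drug-metabolizing P450 (chromosome 5, 145977194 to 146009618, minus strand), was the second most abundant member in WT liver. WT replicates 1, 2 and 3 had 208, 176 and 215 FPKM, against 65.3, 90.7 and 112 FPKM in TRIM24C52/55A replicates 1, 2 and 3. The highest knockin value was well below the lowest WT value. The mean fell from 199.7 ± 20.5 to 89.4 ± 23.5 FPKM (SD, n = 3 each). The log2 fold change was -1.18 (standard error 0.18, 95% interval -1.59 to -0.77, limma adjusted p = 0.00950). Between 3 and 3 mice the exact permutation test cannot go below 0.10 (two-sided), which is the value *Cyp3a25* gave. Its call held in 16 of 16 alternative settings, with log2 fold changes of -1.36 to -0.97.

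*Cyp3a59*, the neighbour and closest relative of *Cyp3a25* (chromosome 5, 146079257 to 146113287, plus strand), was expressed at a small share of its level. It had 7.48, 5.22 and 7.53 FPKM in WT and 1.08, 1.74 and 3.48 FPKM in TRIM24C52/55A replicates 1 to 3. As for *Cyp3a25*, all knockin libraries were below all WT libraries, and replicate 1 was the lowest of the knockin libraries and replicate 3 the highest. The log2 fold change was -1.38 (standard error 0.26, 95% interval -1.99 to -0.77, limma adjusted p = 0.0201). The call was lost when WT replicate 1, WT replicate 3 or TRIM24C52/55A replicate 1 was left out (adjusted p = 0.0744, 0.0831 and 0.0628), and over 16 alternatives the adjusted p ran from 0.00311 to 0.0831. Without TRIM24C52/55A replicate 2 the adjusted p was 0.0410 for *Cyp3a59* and 0.0193 for *Cyp3a25*.

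The values of this pair are not independent measurements where reads cannot be told apart. The longest coding transcripts were 97.0% identical over 1990 aligned bases (GENCODE M21), and 42.1% of the 31-base words of *Cyp3a25* occur in *Cyp3a59*. *Cyp3a59* amounted to 3.60, 2.96 and 3.50% of *Cyp3a25* in WT and 1.66, 1.91 and 3.10% in TRIM24C52/55A replicates 1 to 3. The ranges overlapped, and the difference of -0.64 in the mean log2 ratio gave an exact permutation p of 0.2, or 0.3 adjusted over the 3 ratios computed. With 3 mice per group this test cannot go below 0.1 before adjustment, so it could not resolve whether *Cyp3a59* fell more than *Cyp3a25*. How the shared stretches were assigned was not tested.

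**Figure D2:**
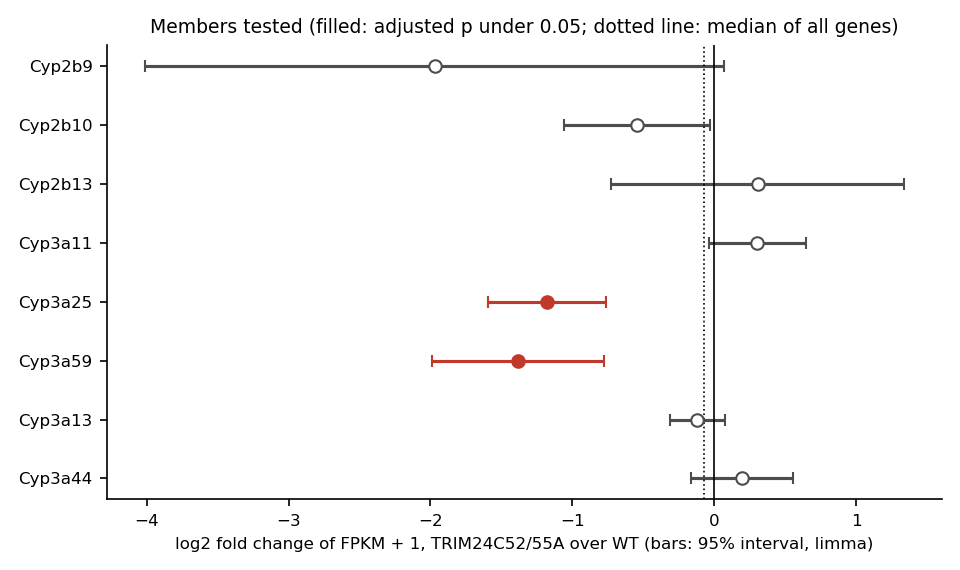
Log2 fold change of FPKM + 1 (horizontal axis, TRIM24C52/55A over WT) of the 8 members tested, with 95% intervals from limma. Filled red points have an adjusted p under 0.05, the solid line marks 0 and the dotted line the median of all genes at -0.08. The intervals of Cyp3a25 and Cyp3a59 lie wholly below 0, as does that of Cyp2b10 (-1.06 to -0.03), which was not called and passed the filter on low values through WT alone, and the interval of Cyp2b9 runs from -4.01 to 0.07.

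*Cyp3a11*, the main PXR-responsive P450 of mouse liver (chromosome 5, 145854426 to 145879964, minus strand), was the most abundant member in all 6 libraries. It had 484, 364 and 441 FPKM in WT and 549, 435 and 615 FPKM in TRIM24C52/55A replicates 1 to 3. The groups overlapped through TRIM24C52/55A replicate 2 alone, which was below WT replicates 1 and 3, while the other knockin libraries were above all WT libraries. The log2 fold change was 0.30 (standard error 0.15, 95% interval -0.04 to 0.64, limma adjusted p = 0.265), so neither no change nor a moderate rise is outside the interval. It was 0.44 without TRIM24C52/55A replicate 2 (adjusted p = 0.0742), 0.19 without WT replicate 2 (0.547) and 0.19 without TRIM24C52/55A replicate 3 (0.517). It differs in sign from that of *Cyp3a25*, its neighbour in the cluster. Their promoters were 67.8% identical over 214 aligned bases, and 32.4% of the 31-base words of *Cyp3a11* occur in another *Cyp3a* gene.

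The summed FPKM of the 7 *Cyp3a* members was 748, 599 and 718 in WT and 667, 575 and 775 in TRIM24C52/55A replicates 1 to 3, and the ratio of the means was 0.977. The total overlapped between genotypes while its makeup did not. *Cyp3a11* made up 64.7, 60.8 and 61.4% of the sum in WT and 82.3, 75.5 and 79.3% in TRIM24C52/55A replicates 1 to 3. *Cyp3a25* made up 27.7, 29.5 and 30.0% in WT and 9.79, 15.8 and 14.5% in the knockin. Both shares were separate between the groups, and as parts of 1 sum they are not independent of each other.

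**Figure D3:**
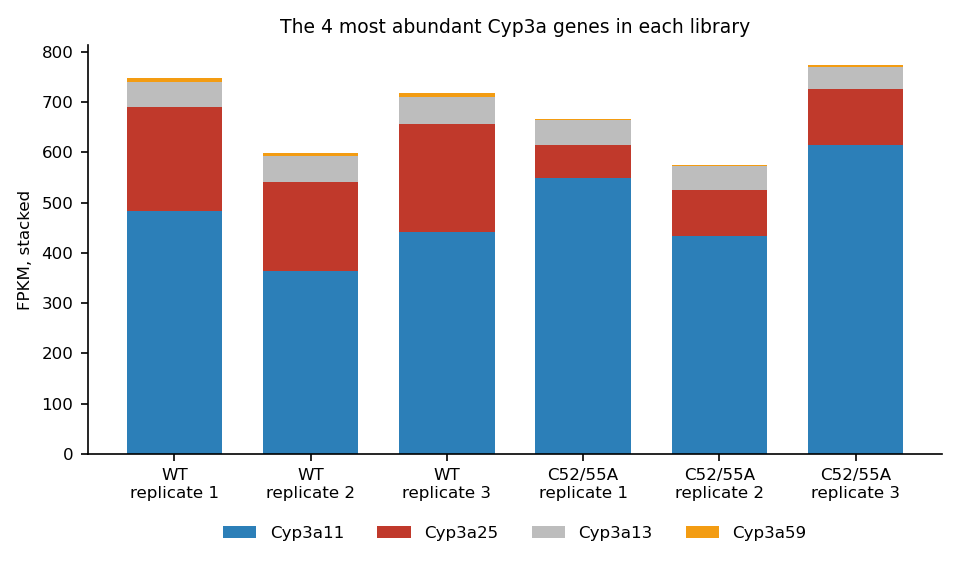
Stacked FPKM (vertical axis) of the 4 most abundant Cyp3a genes in each library. The column heights overlap between the genotypes, and the red block of Cyp3a25 is smaller in each of the 3 TRIM24C52/55A libraries (65.3 to 112 FPKM) than in each WT library (176 to 215 FPKM).

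*Cyp3a13*, the member that lies apart from the cluster (7.51 Mb away on chromosome 5, 137892932 to 137921619, minus strand), is the one least open to confusion with its relatives, with 0.137% of its 31-base words found in another *Cyp3a* gene. It had 48.6, 52.4 and 53.9 FPKM in WT and 50.9, 47.6 and 43.9 FPKM in TRIM24C52/55A replicates 1 to 3. These ranges overlapped, and the log2 fold change was -0.12 (standard error 0.08, 95% interval -0.31 to 0.07, limma adjusted p = 0.449). With quantile normalization its sign turned, to 0.034.

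The remaining *Cyp3a* members, which are female-predominant genes, were low, and *Cyp3a16* and *Cyp3a41a* were near the limit of detection. *Cyp3a44* had 0.752, 0.497 and 0.365 FPKM in WT and 0.850, 0.447 and 1.005 FPKM in TRIM24C52/55A replicates 1 to 3. Its groups overlapped, with a log2 fold change of 0.19 (95% interval -0.16 to 0.55, limma adjusted p = 0.511) that ranged from 0.097 without TRIM24C52/55A replicate 3 over 0.11 without WT replicate 3 and 0.29 without WT replicate 1 to 0.33 without TRIM24C52/55A replicate 2. It was 0.015 without replicate 3 of both genotypes and 0.43 with 0.1 FPKM added in place of 1, and none of these values was called. *Cyp3a16* had 0.0386 FPKM in WT replicate 2 and no row in the other WT libraries, against 0.0409, 0.0797 and 0.0416 FPKM in TRIM24C52/55A replicates 1 to 3. Those values correspond to about 1 or 2 fragments, and 3 fragments would be worth 0.105 to 0.112 FPKM. *Cyp3a41a* had 0.0224 FPKM in WT replicate 1 and no row in the other WT libraries, against 0.0951, 0.0112 and 0.153 FPKM in the knockin, which is at most about 5 fragments. *Cyp3a41b*, whose transcript differs from that of *Cyp3a41a* at 2 of 2060 aligned bases, had 0.0223 FPKM in WT replicate 1 and 0.0947, 0.0597 and 0.153 FPKM in the knockin, so most reads of the pair cannot be told apart (96.1% of the 31-base words of *Cyp3a41a* occur in *Cyp3a41b*). *Cyp3a16* and *Cyp3a41a* were not tested, and no fold is given because both groups are at or near the limit that 3 fragments set.

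*Cyp2b9*, a P450 that CAR can induce and the most abundant *Cyp2b* gene in 6 of 6 libraries (chromosome 7, 26173411 to 26210661, plus strand), had the largest standard error of the 8 members tested on the log2(FPKM + 1) scale. It had 16.1, 19.9 and 78.7 FPKM in WT and 7.70, 1.07 and 25.2 FPKM in TRIM24C52/55A replicates 1 to 3. In each genotype 1 mouse, replicate 3, was far above the others, and knockin replicate 3 lay above WT replicates 1 and 2. The log2 fold change was -1.97 with a standard error of 0.89 (95% interval -4.01 to 0.07, limma adjusted p = 0.228), and the exact permutation test gave p = 0.3. Leaving out WT replicate 3 gave -1.28, leaving out TRIM24C52/55A replicate 2 gave -1.02 and leaving out TRIM24C52/55A replicate 3 gave -2.85, none with an adjusted p under 0.05. The difference of *Cyp2b9* was therefore not resolved from the spread between mice.

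*Cyp2b10*, the usual marker of CAR activity (chromosome 7, 25897620 to 25926624, plus strand), was low in these livers, for which the labels name no CAR agonist. It had 0.779, 0.415 and 1.37 FPKM in WT and 0.215 and 0.581 FPKM in TRIM24C52/55A replicates 1 and 3, and it had no row in replicate 2, where 3 fragments would be worth 0.0972 FPKM. The knockin values overlapped with WT replicate 2. The log2 fold change was -0.55 (standard error 0.22, 95% interval -1.06 to -0.03, limma adjusted p = 0.186), and it was -0.39 (adjusted p = 0.314) without TRIM24C52/55A replicate 2. At about 6 to 42 fragments where it was found, its fold change is understated by the 1 FPKM added before the logarithm, and with 0.1 FPKM added it was -1.65 (adjusted p = 0.201). *Cyp2b10* passed the filter on low values through the WT libraries alone and fell below it without WT replicate 3.

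*Cyp2b13*, which is closely related to *Cyp2b9* (chromosome 7, 26061497 to 26096197, plus strand), was far lower in level. It had 0.206, 0.0998 and 1.13 FPKM in WT and 0.398, 0.0347 and 2.69 FPKM in TRIM24C52/55A replicates 1 to 3. The groups overlapped over their whole range, with replicate 3 highest in each genotype. The log2 fold change was 0.31 (standard error 0.45, 95% interval -0.73 to 1.34, limma adjusted p = 0.740), and neither its difference nor that of *Cyp2b9* was resolved. It was 0.68 without TRIM24C52/55A replicate 2, 0.60 without WT replicate 3, 0.47 without TRIM24C52/55A replicate 1, 0.19 without WT replicate 1 and 0.13 without WT replicate 2, none called, and without TRIM24C52/55A replicate 3 it fell below the filter on low values.

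Ratios within a library do not depend on how the libraries were scaled. *Cyp2b13* amounted to 1.28, 0.502 and 1.43% of *Cyp2b9* in WT and 5.17, 3.23 and 10.7% in TRIM24C52/55A replicates 1 to 3. The knockin ratios printed were above the WT ratios. The lowest knockin ratio, of replicate 2, rests on about 1 fragment of *Cyp2b13* (0.0347 FPKM, where 3 fragments are worth 0.0993), and that of WT replicate 2 on about 3 fragments, so the gap between the groups is uncertain at this depth. *Cyp2b13* also reached the filter on low values only through the knockin libraries, and the ratio is given as a description. The mean log2 ratio was higher by 2.53 in the knockin (exact permutation p = 0.1, the smallest that 3 against 3 can give, and 0.3 adjusted over the 3 ratios). This difference stayed between 2.05 and 2.93 when any 1 library was left out, with 2.93 without TRIM24C52/55A replicate 2. No conclusion is drawn from the p-value or this range, because *Cyp2b13* passed the filter through the group in which the ratio is high. *Cyp2b13* had about 1 to 78 fragments per library, and 19.6% of its 31-base words occur in *Cyp2b9*, so that its reads could partly be split with those of its relative. *Cyp2b9* was 20.7, 47.8 and 57.4 times the level of *Cyp2b10* in WT and 35.9 and 43.5 times in TRIM24C52/55A replicates 1 and 3. These ratios overlapped (difference in mean log2 ratio 0.04, exact permutation p = 1). TRIM24C52/55A replicate 2, in which *Cyp2b10* had no row, gives no ratio, and *Cyp2b10* passed the filter through WT alone. The comparison is therefore a description and no conclusion is drawn from it.

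**Figure D4:**
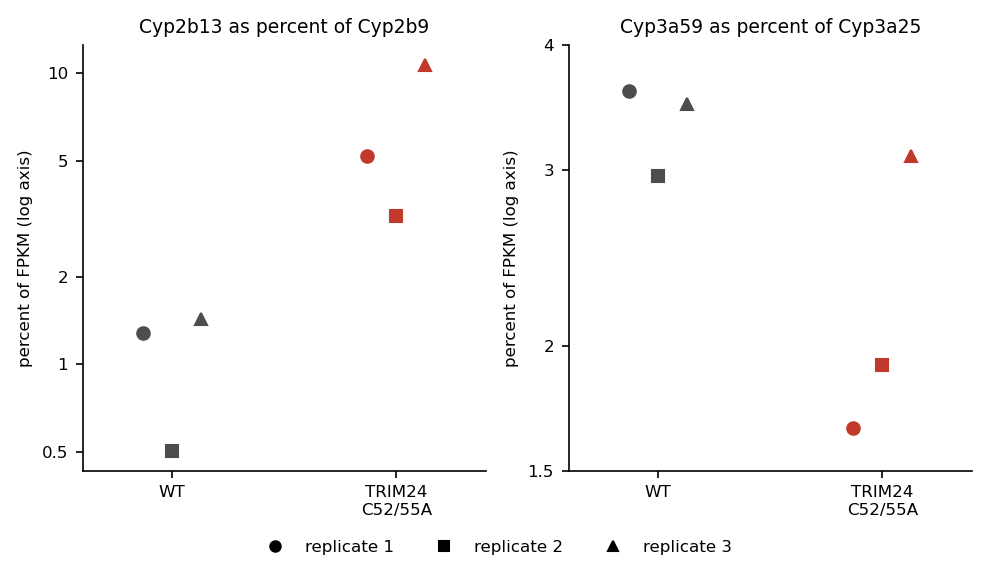
FPKM of Cyp2b13 as a percentage of Cyp2b9 (left) and of Cyp3a59 as a percentage of Cyp3a25 (right) in each library, on log axes, with 1 point per mouse. On the left the WT points run from 0.502 to 1.43% and the TRIM24C52/55A points from 3.23 to 10.7%, with about 1 fragment of Cyp2b13 behind the lowest knockin point, and on the right the groups overlap.

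The 3 *Cyp2b* members shared the order of the mice, a pattern noticed after the values were seen. For all 3, replicate 3 was the highest of its genotype in both WT and TRIM24C52/55A and replicate 2 the lowest of the knockin libraries, a combination that 6.49% of all genes tested showed. None of the 5 *Cyp3a* members tested showed it. Among 31 tested genes on a list of other CAR and PXR targets, 11 (35.5%) did, as did 4 of 15 electron donor and haem genes (26.7%), with *Alas1* and *Por* on both lists. *Alas1*, which makes haem precursors and was singled out after its values were seen, had 168, 174 and 277 FPKM in WT and 63.6, 22.3 and 185 FPKM in TRIM24C52/55A replicates 1 to 3. Because replicate numbers only name the mice, the shared order describes co-variation within each genotype and not a pairing.

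Of the receptor genes, *Nr1i3* passed the test, and its difference from the others was not tested. *Nr1i3*, which encodes CAR, had 120.0, 101 and 139.9 FPKM in WT and 76.8, 61.0 and 67.0 FPKM in TRIM24C52/55A replicates 1 to 3. All knockin libraries were below all WT libraries, and *Nr1i3* fell by 0.80 on the log2 scale (standard error 0.13, limma adjusted p = 0.0127). The call was lost without WT replicate 1 (adjusted p = 0.0520) and without replicate 3 of both genotypes (0.0734), over a range of 0.00786 to 0.0734 across alternatives. *Nr1i2*, which encodes PXR, had 23.6, 23.4 and 22.7 FPKM in WT and 20.7, 26.3 and 18.4 FPKM in the knockin. These overlapped, and its log2 fold change was -0.11 (limma adjusted p = 0.669), with -0.24 (adjusted p = 0.104) without TRIM24C52/55A replicate 2 and the sign turning under quantile normalization (0.029) and without TRIM24C52/55A replicate 3 (0.0038). *Rxra*, their main RXR partner in liver, overlapped likewise between 98.2 to 112 FPKM in WT and 86.8 to 101 FPKM in the knockin (log2 fold change -0.12, adjusted p = 0.472), and its sign turned under quantile normalization (0.039).

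Of 25 receptors, partners and co-regulators of CAR and PXR, 1 rose and 2 fell, with a median log2 fold change of -0.05. Besides *Nr1i3*, *Egfr*, the EGF receptor whose signal holds CAR inactive, rose by 1.70 on the log2 scale (standard error 0.24, limma adjusted p = 0.00662), from 19.4, 29.0 and 15.6 FPKM in WT to 90.9, 66.4 and 55.6 FPKM in TRIM24C52/55A replicates 1 to 3. *Cebpb*, a liver transcription factor, fell by 0.94 (adjusted p = 0.0428), a call lost in 11 of 16 alternatives. Without WT replicate 1 the list held 1 call, and without TRIM24C52/55A replicate 2 it held 4, the added one being *Rxrg*, another RXR gene (log2 fold change -0.65, adjusted p = 0.0351, against -0.51 and 0.0934 with all libraries).

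Electron donors and haem enzymes serve all microsomal P450s. Of 15 such genes, 13 had a negative log2 fold change, with a median of -0.32, beside -0.08 over all genes. As lower 2 passed (13.3%), beside 6.09% of all genes tested, and none passed as higher. *Por*, the P450 reductase, had 65.3, 65.4 and 89.3 FPKM in WT and 49.6, 40.2 and 58.7 FPKM in TRIM24C52/55A replicates 1 to 3, all knockin values below all WT values, but its log2 fold change of -0.56 missed the threshold (limma adjusted p = 0.0796). It passed with TPM, in which all libraries sum to the same total (0.0438) and without TRIM24C52/55A replicate 3 (0.0471), and its adjusted p was 0.231 without WT replicate 3. *Cyb5a*, cytochrome b5, fell by 0.50 (adjusted p = 0.0301, lost in 8 of 16 alternatives) and *Pgrmc2*, a haem chaperone, fell by 0.60 (adjusted p = 0.00896, held in 16 of 16). The count was 1 without WT replicate 1, 2 or 3 or TRIM24C52/55A replicate 1, and 4 without TRIM24C52/55A replicate 3. With TPM it was 6, and with median-of-ratios scaling or quantile normalization it was 1.

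Other known targets of CAR and PXR, in conjugation, transport and further P450 genes, gave a list of 36, of which 31 were tested. Among them 10 (32.3%) fell and none rose, where 6.09% of all genes tested were called lower and 1.64% higher. Their log2 fold changes were negative for 24 and positive for 7, with a median of -0.42, beside -0.08 over all genes. *Abcc3*, a basolateral export pump for conjugates, fell from 79.9, 63.2 and 78.3 FPKM in WT to 26.1, 34.9 and 31.3 FPKM in TRIM24C52/55A replicates 1 to 3 (log2 fold change -1.24, standard error 0.13, limma adjusted p = 0.00213). *Gstt3*, a glutathione transferase, fell by 1.41 on the log2 scale (adjusted p = 0.00480), and *Ugt1a1*, the bilirubin glucuronosyltransferase, fell by 0.64 (adjusted p = 0.00992). *Gsta1*, another glutathione transferase, fell by 1.68 (adjusted p = 0.0227, lost in 5 of 16 alternatives), and *Slco1a4*, an uptake carrier for organic anions, fell by 1.75 (adjusted p = 0.0251, lost in 6 of 16). The fall of *Cyp3a25* was of similar size to that of *Abcc3*, whereas *Cyp3a11* had a positive value. The count was 5 with median-of-ratios scaling and 5 with quantile normalization. It also depended on single libraries, being 3 without WT replicate 1, WT replicate 3 or TRIM24C52/55A replicate 1 and 4 without WT replicate 2.

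**Figure D5:**
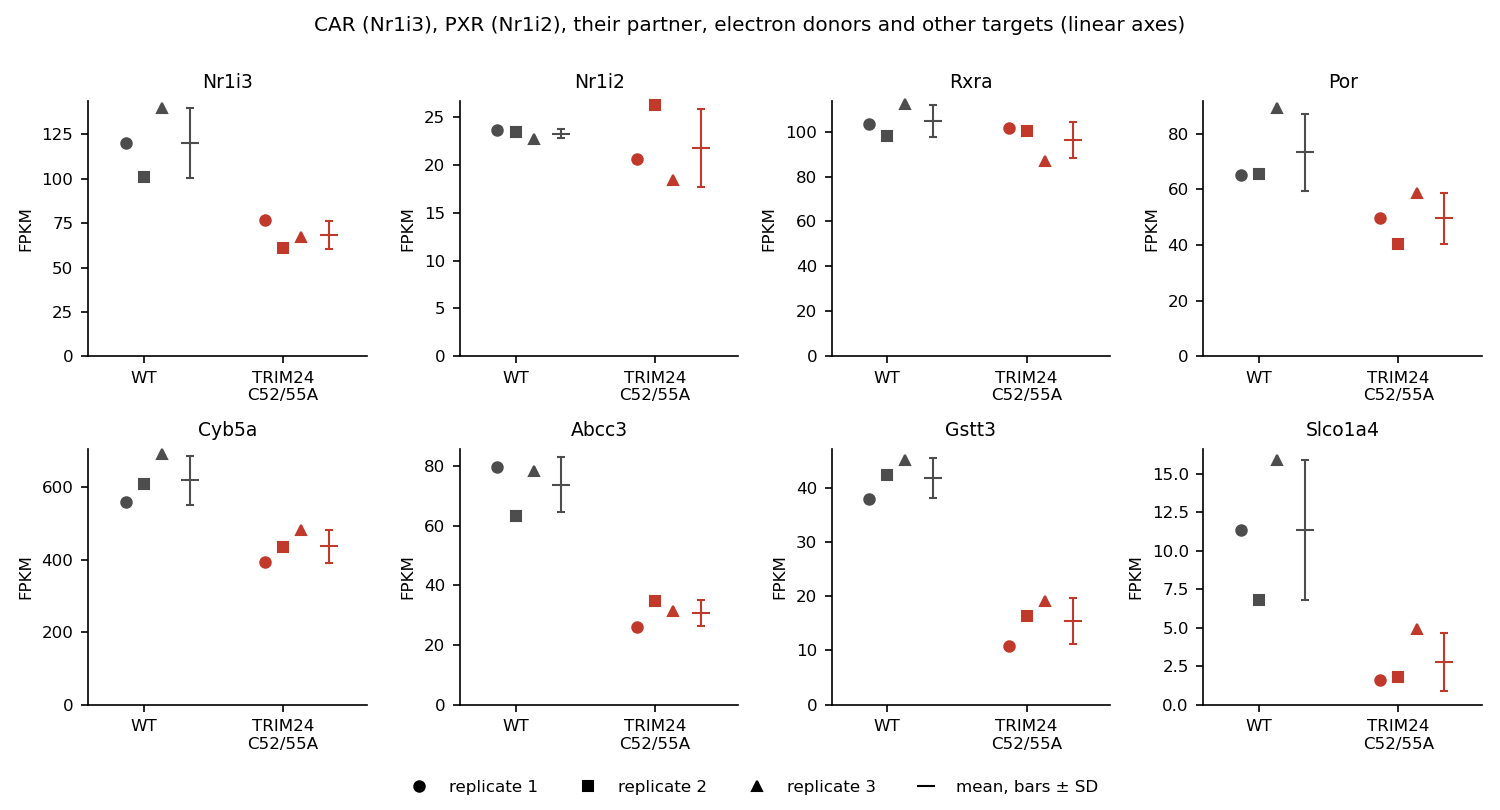
FPKM (linear vertical axes) of the CAR gene Nr1i3, the PXR gene Nr1i2, Rxra, the electron donors Por and Cyb5a and the targets Abcc3, Gstt3 and Slco1a4 in each library, with the mean ± SD (n = 3). The knockin points lie below the WT points in all panels except Nr1i2 and Rxra.

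Further liver programmes moved in the same libraries, and their part in the values of the *Cyp2b* and *Cyp3a* genes was not tested. For comparison with the counts below, 6.09% of all genes tested were called lower and 1.64% higher. Of 9 other P450 genes listed as higher in female mouse liver, 5 fell, led by *Cyp17a1* (log2 fold change -2.96), *Cyp4a14* (-2.22) and *Cyp2c38* (-1.76), and none rose. Without TRIM24C52/55A replicate 2, 5 of them fell and 2 rose, *Cyp2c40* by 0.71 (adjusted p = 0.0190) and *Cyp2c69* by 0.77 (0.0305). The 4 male-predominant P450 genes listed here all rose, *Cyp4a12b* by 2.12, *Cyp7b1* by 1.94, *Cyp4a12a* by 1.65 and *Cyp2d9* by 1.09 on the log2 scale. This list, like the others, was chosen with earlier results of these data known, so its count is a description. Of 15 pericentral genes, the zone in which CAR targets are mostly expressed, 7 fell and none rose, with a summed level of 5643 to 7141 FPKM in WT and 4105 to 5451 FPKM in the knockin, and *Glul* had a log2 fold change of -1.06 and *Oat* one of -1.78. Without TRIM24C52/55A replicate 2, 5 fell and 1, *Rgn*, rose by 0.79 (adjusted p = 0.0189). Of 12 periportal genes 3 rose and 1 fell, with sums of 4670.3 to 4936 and 4674 to 5326 FPKM. The split was 2 and 2 without TRIM24C52/55A replicate 2, and 4 and 0 with median-of-ratios scaling or quantile normalization. Acute-phase genes, which mark the inflammatory state that lowers P450 expression, fell in 5 of 10 cases, *Saa2* by 2.47 and *Orm2* by 1.88. The count of calls was 3 for the female-biased list without any 1 WT library or TRIM24C52/55A replicate 1, 4 for the pericentral list without WT replicate 2, WT replicate 3 or TRIM24C52/55A replicate 1, and 1 for the periportal list without any 1 WT library or TRIM24C52/55A replicate 1 and 2 without TRIM24C52/55A replicate 3.

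Few markers of other cell types passed. None of 8 macrophage, 7 stellate cell and 4 cholangiocyte genes tested passed. All 8 macrophage genes had a negative log2 fold change (median -0.26), and the median of all genes was itself negative (-0.08). That all-gene median was 0.01 with median-of-ratios scaling or quantile normalization. Of 7 endothelial genes 1 (*Lyve1*) fell. Among 9 adipocyte genes *Adrb3* rose and *Pparg*, which hepatocytes also express and which the study examined in liver, fell. Of 7 hepatocyte genes 1, *Cps1*, rose by 0.63. The summed macrophage markers ranged from 147 to 186 FPKM in WT and from 124 to 178 FPKM in TRIM24C52/55A libraries. Of 6 enterocyte genes, *Fabp2* alone was tested, which liver also expresses and which fell by 1.21 on the log2 scale (limma adjusted p = 0.00217), and *Vil1* was at most 0.279 FPKM.

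The genes whose profile over the 6 libraries was most like that of *Cyp3a25*, by the root mean square difference of centred log2 values among the 6561 genes that averaged 5 FPKM or more, were *9030619P08Rik* (0.104), *Sult1a1*, a phenol sulfotransferase (0.112), and *Fabp2*, a fatty acid binding protein (0.116). For *Cyp3a59* they were *9030619P08Rik* (0.112), *Gm13775* (0.126) and *Cyp3a25* itself (0.173). *Cyp3a59* averaged 4.42 FPKM and was not among these genes, and placed among them it would rank 11th from *Cyp3a25*. *Nr1i3* ranked 175th from *Cyp3a25*.

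Genes around the clusters were compared as well. Within 1 Mb of the *Cyp3a* cluster (677 kb on chromosome 5, without *Cyp3a13*), 24 other genes were tested, of which *Arpc1a*, *Gtf3a* and *Mtif3* fell and none rose. Within 1 Mb of the *Cyp2b* cluster (313 kb on chromosome 7), 33 other genes were tested, of which *Cyp2a4* fell and *Cyp2f2* rose. The median log2 fold change of these neighbours was -0.18 and -0.07, beside -0.08 over all genes. Across all genes tested, 6.09% were called lower and 1.64% higher.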

How the data were processed

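Each library's table lists a gene, its locus and its FPKM, as deposited by the authors, for genes above 0. Per the labels' processing notes, GRCm38, bcl2fastq, Salmon 0.14.0 and DESeq2 1.30.0 were used, with no role stated, and the paper names no test for these tables. FPKM carry no total count, so multi-mapping and depth could only be examined through the steps of low values. Member loci, counted from 1, equalled those of GENCODE M21.

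A gene without a row was set to 0. The log2(FPKM + 1) of genes averaging 0.5 FPKM or more entered a linear model of 3 WT against 3 knockin libraries (R 4.3.3, limma 3.58.1, eBayes with trend, two-sided) and Benjamini-Hochberg adjustment. Single values and ratios had exact permutation tests over the 20 arrangements of 3 against 3 libraries. The ratio of *Cyp2b9* to *Cyp2b10* had 3 WT and 2 knockin values and so fewer arrangements. Sequences came from RefSeq (GRCm38.p6) and GENCODE, aligned with Biopython 1.88, and other steps used Python 3.11.15. Alternatives covered the pseudocount, filter, scaling, variance model, replicate block and each library left out.

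The named genes are the members, *Cyp3a41b*, *Nr1i3*, *Nr1i2*, *Rxra*, *Por*, at most 5 called genes per list with the smallest adjusted p, and the 3 most alike profiles of each called member; others are named as checks of tissue, or because a count was 5 or fewer, after their values were seen. The members and lists were chosen with earlier results of these data known. Libraries are of separate mice.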

Additional observations from a re-analysis of the deposited data

How the results depend on the processing

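*Cyp3a25* passed in 16 of 16 alternatives, *Cyp3a59* in 12 and *Cyp2b9* in 1. Without a filter on low values 1 member passed, *Cyp3a25* (limma adjusted p = 0.0488), and *Cyp3a59* did not (0.0763). Of the receptor list 1 gene passed, *Egfr* (0.0420), and *Nr1i3* did not (0.0527). In the same setting 1 electron donor or haem gene, 3 targets, 3 female-biased, 3 pericentral and 1 periportal gene passed. This setting tests 21528 genes. Electron donor and haem calls numbered 6 with TPM, 1 with median-of-ratios scaling and 1 with quantile normalization. Target calls numbered 5, 5 and 6 with median-of-ratios scaling, quantile normalization and no mean-variance trend, female-biased calls 3 and 3 with the first of these settings and the second, pericentral calls 4 with median-of-ratios scaling, and periportal calls 2 without the trend. Without replicate 3 of both genotypes, an alternative chosen after seeing the data, 1 receptor, 1 electron donor or haem and 2 periportal genes passed. Leaving out 1 library gave 1 to 2 member calls, 1 to 4 receptor, 1 to 4 electron donor or haem, 3 to 12 target, 3 to 7 female-biased, 4 to 8 pericentral, 1 to 4 periportal and 5 to 6 acute-phase calls, and a difference in the log2 ratio of *Cyp2b9* to *Cyp2b10* of -0.41 (without WT replicate 1) to 0.33, with -0.10 without TRIM24C52/55A replicate 3. Signs turned for *Cyp3a13* (0.034), *Nr1i2* (0.029) and *Rxra* (0.039) with quantile normalization, for *Nr1i2* without TRIM24C52/55A replicate 3 (0.0038, with -0.24 as the lowest value with 1 library left out) and for *Rxra* without replicate 3 of both genotypes (0.0013, with -0.17 as the lowest value with 1 library left out). Except where stated, the cause was not tested.

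Replicate numbers did not pair the mice: deviations of same-numbered libraries correlated at -0.12, -0.10 and 0.00 across genes. With a replicate block 578 genes passed in place of 944, the electron donor and haem list had 4 calls, *Cyp2b9* passed (adjusted p = 0.0490) and *Por* passed (0.0291). Over all genes, 944 calls (200 higher, 744 lower) became 347 without a filter, 1552 with TPM (193 and 1359), 655 with median-of-ratios scaling (250 and 405), 633 with quantile normalization (255 and 378), 353 without replicate 3 of both genotypes and 294 to 1280 when 1 library was left out. TPM moved the median log2 fold change of all genes to -0.13, and median-of-ratios and quantile normalization to 0.01. FPKM of *Cyp2b10*, *Cyp3a16* and *Cyp3a41a* are limited by depth.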
